A study of Oryctolagus cuniculus with 6 samples.

Results

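The non-collagen genes of the basement membrane were examined in rabbit limbal stem cells (LSCs), as 9 genes listed by name: the laminin chains LAMA3, LAMB3, LAMA5, LAMB1 and LAMC1, the nidogens NID1 and NID2, and the heparan sulfate proteoglycans HSPG2 and AGRN. All 9 were found by symbol among the 22190 genes of the table, and all 9 passed the filter on low counts, with 538 to 113182 counts per library. RNA-seq had been performed on primary LSCs that migrated out of limbal explants, and each group had 3 libraries, named fresh and preconditioned here. The fresh group came from corneas cultured without freezing or added IL-1β. The preconditioned group came from corneas stored in liquid nitrogen for 7 days in freezing medium with fetal bovine serum, dimethyl sulfoxide and 10 ng/mL of IL-1β, a cytokine of inflammation, so that freezing, medium and cytokine cannot be told apart. The strain, age and sex of the rabbits, and whether the libraries of a group came from different animals, are not given in the sources used here, so that the p values measure the spread between these libraries, which may be technical.

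The basement membrane is the thin sheet of matrix on which the basal cells of the limbus and cornea rest. Laminins are trimers of one alpha, one beta and one gamma chain, and they bind integrins on the cell and polymerise into the first layer of the sheet. A trimer that holds the LAMA3 and LAMB3 chains anchors hemidesmosomes of stratified epithelia and is laid down by migrating keratinocytes, whereas the trimers with LAMA5 and LAMC1 are abundant under resting epithelia and have been linked to the limbal niche. Nidogens bridge the laminin layer to collagen IV, and perlecan (HSPG2) and agrin (AGRN) bind laminin and hold growth factors on their heparan sulfate chains.

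The libraries held 31952352 to 34327534 counts on genes, and libraries of a group differed by more than sampling noise. On the first principal component (50.4% of the variance) preconditioned replicate 1 lay at 8.13, between the fresh libraries at −53.1 to −41.1 and the other preconditioned libraries at 58.3 and 70.4. Of the epithelial markers, 8 of 10 were in the table by symbol, all of them with counts in every library (KRT14 and KRT12 were not found by symbol), and they summed to 12251 to 15842 CPM in fresh libraries and 11390 to 16976 CPM in preconditioned ones. CPM is the count on a common scale, as if each library held the same total after TMM scaling. Most of this sum was KRT5, and 4 of the 8 estimates were positive and 4 negative, none past the adjusted p threshold. Of the markers of limbal basal cells, KRT15 had 0.988 to 9.71 CPM. TP63 had 246, 226 and 239 CPM in the fresh libraries and 183, 122 and 112 CPM in the preconditioned libraries, without overlap (log2 fold change −0.77, adjusted p = 0.059), and EPCAM also had no overlap, in the other direction (0.50, adjusted p = 0.060). Of all tested genes, 18.8% were lower and 17.9% higher without overlap. KRT3, the paper's marker of differentiation, had the largest absolute estimate of the 8 (log2 fold change −1.21, adjusted p = 0.30). It overlapped between the groups and varied widely, with 7489 to 94399 counts per library. All 12 markers of stromal keratocytes and fibroblasts had counts in every library, with summed levels of 919, 1724 and 2099 CPM in the fresh libraries and of 2167, 4171 and 2271 CPM in the preconditioned group. Markers of vascular endothelium (4 of 6 at 0 in some library) summed to 1.10 to 13.4 CPM and those of melanocytes (4 of 6 at 0 in some library) to 2.71 to 6.39 CPM, both over all 6 libraries. Leukocyte markers (2 of 6 at 0 in some library) summed to 100.5, 132 and 95.4 CPM in the fresh libraries and to 122, 310 and 291 CPM in the preconditioned libraries. Nearly all of this was CD68, a lysosomal protein abundant in macrophages, and all 4 tested genes had positive estimates, none past the adjusted p threshold. The sum of the conjunctival and goblet markers was 1910 to 4680 CPM. Nearly all of this was KRT19 (means of 2739 CPM in the fresh and 2122 CPM in the preconditioned group) and KRT7 (755 and 900 CPM). KRT13 had means of 12.6 and 24.6 CPM, SPDEF was below the filter on low counts, and MUC5AC was not found by symbol. The stromal sums did not overlap between the groups. COL1A1, a fibrillar collagen, had 56.8, 109 and 108 CPM in the fresh libraries and 537, 693 and 505 CPM in the preconditioned libraries (log2 fold change 2.66, edgeR adjusted p = 0.0153). With one library removed at a time, its log2 fold change was 2.41 to 2.80. The edgeR adjusted p then missed the threshold without fresh replicate 2 or preconditioned replicate 2, reaching at most 0.0691. The other 11 stromal markers summed to 863, 1615 and 1990 CPM and to 1629, 3479 and 1766 CPM, with overlap, and 4 of the 12 estimates were negative. The part of these markers in the results below was not tested, and in bulk RNA a change in the number of cells of one type and a change in RNA per cell cannot be told apart.

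In the preconditioned group, expression of LAMB3 rose about 2-fold and that of AGRN fell to 0.518 of its fresh level. Only these 2 of 9 genes reached the adjusted p threshold of 0.05 in the quasi-likelihood test of edgeR. LAMA3 had a higher mean in the preconditioned group, and LAMA5, LAMC1, LAMB1, HSPG2 and both nidogens a lower one, so that 2 of the 9 estimates were positive and 7 negative. None of the 9 genes passed the study's cutoffs, which also ask for a log2 change of 1 or more in either direction and were passed by 344 of 15029 tested genes (2.29%). DESeq2 gave the same count of 0 at these cutoffs, against 7.78% of all genes with a DESeq2 adjusted p. An unadjusted edgeR p under 0.05 was found for 5 of the 9 genes and for 30.6% of all tested genes. By the DESeq2 adjusted p alone, 5 of the 9 genes passed, against 19.1% of all genes. By the adjusted p alone, 1 of the 9 genes was higher, against 2.88% of all tested genes, and 1 was lower, against 2.2%. The groups did not overlap for 2 higher genes (LAMA3 and LAMB3), against 17.9% of all genes, and for 3 lower genes (LAMA5, LAMC1 and AGRN), against 18.8%. The median log2 fold change of the 9 genes was −0.50 and that of all tested genes 0.01.

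Per length, the transcripts of LAMA3 and LAMB3 were far more abundant than those of the other 7 genes. The deposited FPKM, which divide each count by the library's total and by a length per gene, averaged 222 for LAMA3 and 210 for LAMB3 in the fresh group, and their ranges overlapped. LAMC1 (55.9 FPKM) and AGRN (44.8 FPKM) followed and overlapped each other, and LAMA5 stood next at 26.4 FPKM, below AGRN and above HSPG2 in all fresh libraries. HSPG2, NID1, NID2 and LAMB1 formed the lower end with means of 17.8, 12.8, 8.09 and 6.20 FPKM, and each overlapped its neighbour in this order. In the preconditioned group the first 7 genes were separated from one another in all libraries, with LAMB3 (371 FPKM) now above LAMA3 (294 FPKM), while NID1 (6.53 FPKM), NID2 (4.80 FPKM) and LAMB1 (4.61 FPKM) overlapped. Among all tested genes ranked by mean FPKM over the 6 libraries of both groups, LAMB3 and LAMA3 stood in places 259 and 291 and LAMB1 in place 7513.

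**Figure D1:**
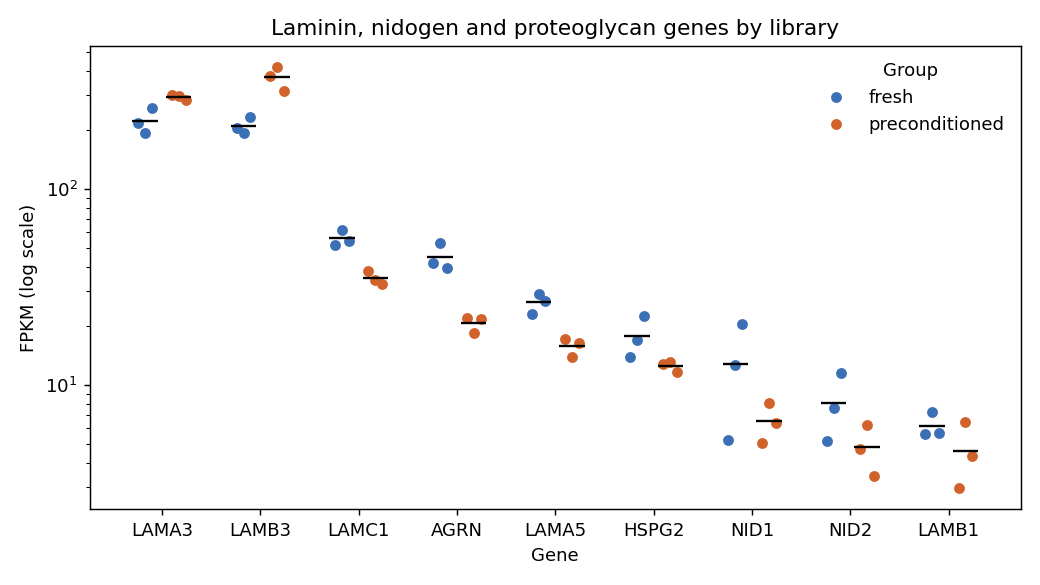
FPKM of each gene (log axis) in each library, with fresh libraries in blue and preconditioned libraries in orange, 3 each, and black lines at the group means. LAMA3 and LAMB3 lie at 192 to 418 FPKM and all other genes at or below 61.7 FPKM, and the preconditioned points lie apart from the fresh ones for LAMA3, LAMB3, LAMC1, AGRN, LAMA5 and, on this scale only, HSPG2.

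LAMB3 encodes the beta 3 chain, which is found in the epithelial trimer with LAMA3. LAMB3 (NCBI gene 100342905) had 832, 780 and 944 CPM in the fresh libraries and 1687, 1971 and 1429 CPM in the preconditioned libraries. The lowest preconditioned library was well above the highest fresh one. The log2 fold change was 0.99 (standard error 0.16, 95% interval 0.63 to 1.36, edgeR adjusted p = 0.0318), just short of the fold change cutoff. With one library removed at a time, the log2 fold change was 0.87 to 1.10. The adjusted p stayed at or below 0.05 only without preconditioned replicate 1 (0.0110) or preconditioned replicate 3 (0.0469). It was 0.115, 0.134 and 0.0769 without fresh replicates 1, 2 and 3, and 0.129 without preconditioned replicate 2.

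LAMA3 encodes the alpha 3 chain, the part of the same trimer that integrins of the basal cell recognise. LAMA3 (NCBI gene 100346886) had 2268, 2003 and 2673 CPM in the fresh libraries and 3444, 3598 and 3306 CPM in the preconditioned libraries. The groups did not overlap, and the preconditioned libraries were close to each other, with an SD of 146 CPM against 338 CPM in the fresh group. The log2 fold change was 0.58 (standard error 0.14, 95% interval 0.25 to 0.91) with an edgeR adjusted p of 0.0562, which missed the threshold. The adjusted p was 0.0381 without preconditioned replicate 1, 0.0937 to 0.186 without any one of the other libraries, and 0.0051 with DESeq2. By FPKM, the ratio of LAMB3 to LAMA3 was 0.941, 0.999 and 0.907 in the fresh libraries and 1.26, 1.41 and 1.11 in the preconditioned libraries, a comparison chosen after the values had been seen.

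LAMA5 and LAMC1 encode the alpha 5 and gamma 1 chains, which pair in trimers of resting epithelial and vascular basement membranes. LAMA5 (NCBI gene 103347398) had 236, 299 and 274 CPM in the fresh libraries and 192, 164 and 185 CPM in the preconditioned libraries. LAMC1 (NCBI gene 100351387) had 321, 380 and 331 CPM in the fresh libraries and 258, 246 and 225 CPM in the preconditioned libraries. Each preconditioned library was below each fresh one for both genes. The log2 fold changes were −0.58 for LAMA5 (standard error 0.13, edgeR adjusted p = 0.0505) and −0.50 for LAMC1 (standard error 0.12, adjusted p = 0.0535), so that both values missed the threshold narrowly. Their 95% intervals, −0.88 to −0.27 and −0.78 to −0.23, did not include 0. Both had an adjusted p under 0.05 without preconditioned replicate 1 (0.0221 and 0.0227) and with DESeq2 (0.0066 and 0.0098). Without any one of the other libraries it was 0.109 to 0.175 for LAMA5 and 0.115 to 0.177 for LAMC1.

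LAMB1 encodes the beta 1 chain, the usual partner of LAMC1 in many tissues. LAMB1 (NCBI gene 100358679) had 31.2, 40.3 and 31.1 CPM in the fresh libraries and 18.0, 41.6 and 26.7 CPM in the preconditioned libraries. Preconditioned replicate 2 had the highest value of all 6 libraries and preconditioned replicate 1 the lowest, so that the groups overlapped. LAMB1 had a log2 fold change of −0.25 (95% interval −0.94 to 0.45, edgeR adjusted p = 0.60), and it ranged from −0.01 without preconditioned replicate 1 to −0.61 without preconditioned replicate 2. Preconditioned replicate 2 was also the library with the highest sum of stromal markers, 4171 CPM.

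AGRN encodes agrin, a proteoglycan known for the clustering of receptors at the neuromuscular junction and present in epithelial basement membranes. AGRN (NCBI gene 103347121) had 295, 369 and 273 CPM in the fresh libraries and 168, 148 and 169 CPM in the preconditioned libraries. The highest preconditioned library was far below the lowest fresh one. For AGRN the log2 fold change came to −0.95 (standard error 0.14, 95% interval −1.29 to −0.61, edgeR adjusted p = 0.0306), and it was −1.04 to −0.81 with one library removed at a time. The adjusted p stayed under 0.05 only without preconditioned replicate 1 (0.0100). It was 0.109, 0.0980 and 0.0632 without fresh replicates 1, 2 and 3, and 0.131 and 0.0758 without preconditioned replicates 2 and 3. Scaled by library size alone, AGRN passed the study's cutoffs, with a log2 fold change of −1.12.

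HSPG2 encodes perlecan, the large proteoglycan that many basement membranes share. HSPG2 (NCBI gene 100340334) had 194, 236 and 311 CPM in the fresh libraries and 196, 211 and 179 CPM in the preconditioned libraries. The groups overlapped, and fresh replicate 3 stood highest. HSPG2 had a log2 fold change of −0.34 (95% interval −0.76 to 0.09, edgeR adjusted p = 0.25). It was −0.14 without fresh replicate 3 and −0.49 without fresh replicate 1.

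NID1 and NID2 encode the nidogens, and they had the widest spread between libraries of the 9 genes within the fresh group. NID1 (NCBI gene 100351025) had 23.7, 57.1 and 91.4 CPM in the fresh libraries and 25.2, 42.2 and 32.3 CPM in the preconditioned libraries. NID2 (NCBI gene 100347682) had 24.1, 35.2 and 52.8 CPM in the fresh libraries and 23.9, 33.6 and 17.7 CPM in the preconditioned libraries. Both genes were lowest in fresh replicate 1 and highest in fresh replicate 3 among the fresh libraries, a spread of 59.0% and 38.7% of the mean (SD). The log2 fold changes were −0.79 for NID1 (95% interval −1.88 to 0.30, edgeR adjusted p = 0.29) and −0.57 for NID2 (95% interval −1.37 to 0.22, adjusted p = 0.28). Without fresh replicate 3 they were −0.29 and −0.24, and without fresh replicate 1 they were −1.16 and −0.81. The table holds another gene described as nidogen-1, LOC103351035, at 1.10 to 5.06 CPM, and near-identical copies could share reads. With both summed, the log2 fold change of NID1 was −0.76.

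**Figure D2:**
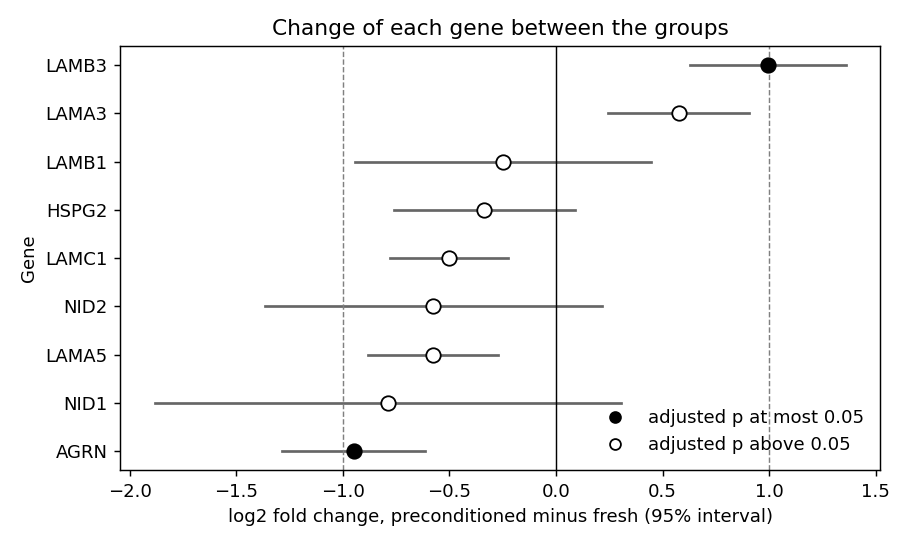
Log2 fold change of each gene, preconditioned minus fresh, from edgeR's quasi-likelihood fit (3 libraries per group), with 95% intervals as lines, dashed lines at −1 and 1, and filled points for an adjusted p of at most 0.05. The filled points are LAMB3 at 0.99 and AGRN at −0.95, and the intervals of LAMB1, HSPG2, NID1 and NID2 include 0.

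Ratios of genes within one library do not depend on how libraries are scaled, and 4 pairs of related genes were compared in this way by FPKM. The ratio of LAMB3 to LAMB1 was 36.2, 26.3 and 41.3 in the fresh libraries and 127, 64.4 and 72.7 in the preconditioned libraries. The ratio of LAMA3 to LAMA5 was 9.44, 6.57 and 9.58 in the fresh libraries and 17.6, 21.6 and 17.5 in the preconditioned libraries. For both pairs all preconditioned libraries lay above all fresh libraries, with log2 differences of 1.31 and 1.16. The exact, 2-sided permutation p was 0.1 for each, the smallest that 3 libraries against 3 allow (0.2 after Benjamini-Hochberg adjustment over the 4 pairs, exact permutation test). AGRN to HSPG2 was 3.03, 3.11 and 1.75 in the fresh libraries and 1.70, 1.40 and 1.88 in the preconditioned libraries, so that the groups overlapped in fresh replicate 3. The log2 difference was −0.63 (exact permutation p = 0.2, adjusted p = 0.267), and −0.90 without fresh replicate 3. NID2 to NID1 was 0.993, 0.600 and 0.563 in the fresh libraries and 0.924, 0.776 and 0.535 in the preconditioned libraries, a log2 difference of 0.06 that was smaller than the SD within either group (0.45 and 0.40; exact permutation p = 1).

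LAMA3 among the alpha chains and LAMB3 among the beta chains held most of the summed FPKM in every library, and their shares were larger in the preconditioned group. LAMA3 made up 90.0%, 86.1% and 90.1% of the alpha chain FPKM in the fresh libraries and 94.4%, 94.2% and 94.2% in the preconditioned libraries. LAMA5 made up 10.7% ± 2.1 (SD, n = 3) in fresh libraries and 5.04% ± 0.582 (SD, n = 3) in preconditioned ones. LAMB3 made up 92.6% ± 0.920 and 96.8% ± 0.427 (SD, n = 3 each) of the beta chain FPKM. For each of these genes the libraries of the groups did not overlap. These shares are over transcripts of the measured genes and rest on the lengths used for the FPKM.

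**Figure D3:**
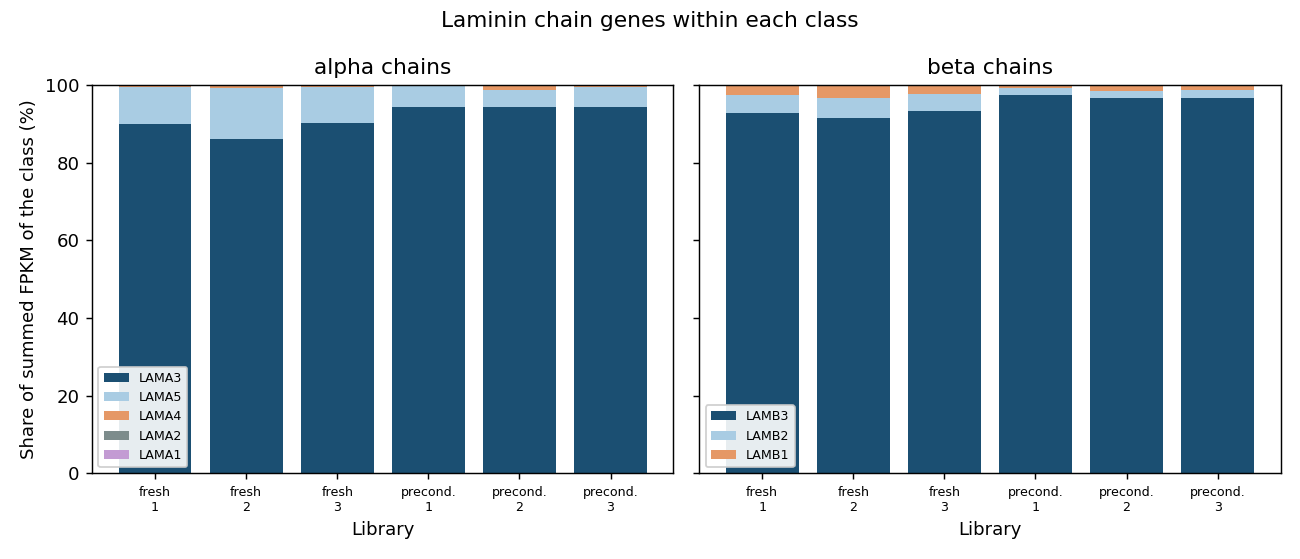
Share (%) of the summed FPKM of the alpha (5 genes) and beta (3 genes) laminin chains in each of the 3 fresh and 3 preconditioned (precond.) libraries, as stacked bars. LAMA3 and LAMB3 (dark blue) fill most of each bar, and LAMA5 is smaller in all preconditioned libraries than in any fresh library.

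The patterns of the 9 genes over the 6 libraries fell into different shapes. Log2 CPM was centred for each gene, and genes with a symbol and a mean of at least 10 CPM were ordered by their root mean square difference from each of the 9, as a description. The order depends on the difference between the groups and on the spread within them. Among 8316 other genes, LAMC1 was number 74 for LAMA5 (difference 0.11) and LAMA5 number 156 for LAMC1, and LAMA3 was number 131 for LAMB3 but LAMB3 number 1146 for LAMA3. NID2 was number 10 for NID1 and NID1 number 195 for NID2. HSPG2 was number 29 for NID2 and NID2 number 1810 for HSPG2. The gene nearest to AGRN was FBLN1, which encodes fibulin 1, a glycoprotein of basement membranes (difference 0.10), followed by CABIN1 and TWNK. The nearest to NID2 were TIMP1, an inhibitor of metalloproteinases, and MYL9, a myosin light chain of contractile cells, at 0.09 and 0.13. THBD was the nearest to NID1 (0.25), PTGER4, a receptor of prostaglandin E2, to HSPG2 (0.04), CHST14 to LAMA5 (0.04), ERCC5 to LAMC1 (0.03), S1PR5 to LAMA3 (0.05), LMTK3 to LAMB3 (0.10) and DTWD1 to LAMB1 (0.17). Within the fresh group, LAMA3 and LAMB3 were lowest in fresh replicate 2, the library in which LAMA5, LAMB1, LAMC1 and AGRN were highest.

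Other genes of the basement membrane were taken from 5 lists with 58 genes in all, of which 50 passed the filter on low counts. None passed the study's cutoffs with edgeR, 25 of 50 had an unadjusted p under 0.05 (30.6% of all tested genes), and 8 of the 48 with a DESeq2 adjusted p passed these cutoffs with DESeq2 (7.78% of all genes). The paper itself applied these cutoffs with DESeq2. Among its upregulated genes it named COL7A1, COL15A1, FBLN2 and PXDN, and it reports qPCR of these in the same direction. By adjusted p alone, 1 of the 50 genes was higher (ITGB1), against 2.88% of all tested genes, and 2 were lower (FBLN1 and SULF1), against 2.2%. For these 3 genes, the adjusted p passed the threshold without preconditioned replicate 1 (ITGB1 0.0081, FBLN1 0.0143, SULF1 0.0239) and missed it without any one of the other libraries, where it reached 0.163 for ITGB1, 0.153 for FBLN1 and 0.155 for SULF1.

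Of the other laminin genes and NTN4, 5 of 6 in the table were tested, with a median log2 fold change of −0.30 and none past the adjusted p threshold. LAMB2, the beta chain of vascular and muscle basement membranes, had 54.8, 55.4 and 58.0 CPM in the fresh libraries and 43.8, 52.8 and 39.7 CPM in the preconditioned libraries (log2 fold change −0.30, adjusted p = 0.17). LAMA4, an alpha chain of vessels, had 4.93 to 9.17 CPM except in preconditioned replicate 2 with 28.6 CPM, and its log2 fold change of 0.87 (adjusted p = 0.39) became −0.28 without this library. LAMC3 and LAMA2 had few counts, 2 to 22 and 15 to 37 per library (log2 fold changes −1.33 and −0.56, adjusted p = 0.19 and 0.37).

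All 10 collagens of the basement membrane zone were tested, and none had an adjusted p of at most 0.05 (0.055 to 0.85). Their median log2 fold change was −0.87, the lowest of the 5 lists. Without overlap, 5 of the 10 collagens were lower and 1 higher, against 18.8% and 17.9% of all tested genes. The lowest adjusted p of the list was that of COL18A1 (0.0547), which was lower without overlap (log2 fold change −0.99). Each of the 6 collagen IV genes, to which nidogens link the laminins, had a lower mean in the preconditioned group. For 4 of these 6 genes the groups did not overlap, whereas COL4A1 and COL4A6 overlapped. COL4A1 had 39.01, 69.7 and 159 CPM in the fresh libraries and 43.9, 20.6 and 27.9 CPM in the preconditioned libraries (log2 fold change −1.54, adjusted p = 0.11), and the log2 fold change was −0.82 without fresh replicate 3. In the fresh group COL4A1 was thus lowest and highest in the same libraries as NID1 and NID2. COL4A3 and COL4A4 had the largest fold changes of any list (−4.71 and −4.82, adjusted p = 0.076 and 0.064), and they rested in large part on fresh replicate 3, with 24.0 and 43.6 CPM against at most 1.88 and 3.16 CPM in the other fresh libraries. Without this library the log2 fold changes were −2.30 and −2.39. COL15A1, a collagen of vessels and muscle, overlapped between the groups (log2 fold change 1.55, adjusted p = 0.17), and preconditioned replicate 2 stood highest at 124 CPM. The log2 fold change of COL15A1 was 0.83 without this library. COL7A1, the collagen of anchoring fibrils under the epithelium, had 20.3, 26.1 and 46.1 CPM in the fresh libraries and 68.1, 59.5 and 59.4 CPM in the preconditioned libraries, without overlap (log2 fold change 1.01, adjusted p = 0.076). COL17A1, the collagen of hemidesmosomes, had 2362 ± 264 and 2452 ± 398 CPM (SD, n = 3 each).

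Among 11 tested genes of other basement membrane glycoproteins, FBLN1 fell from a mean of 65.3 ± 11.5 CPM to one of 37.5 ± 3.35 CPM (n = 3 each, SD; log2 fold change −0.80, edgeR adjusted p = 0.0410). SMOC1, NPNT and FBLN2 had the largest fold changes of this list (−2.85, −1.77 and 1.47) at levels of at most 4.28 CPM, with adjusted p values of 0.13, 0.076 and 0.089. The log2 fold change of SMOC1 was −0.83 without fresh replicate 3. The median of the list was 0.39.

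Of 12 laminin receptor and hemidesmosome genes, ITGB1, the beta 1 integrin that pairs with alpha 3 and alpha 6, rose from a mean of 1870 ± 311 CPM to one of 3510 ± 686 CPM (n = 3 each, SD; log2 fold change 0.91, edgeR adjusted p = 0.0479). Its partner ITGA3 was lower without overlap between the groups (log2 fold change −0.23, adjusted p = 0.25). ITGA6 had a log2 fold change of −0.12, with overlap (adjusted p = 0.62). Of the 12 estimates, 7 were positive and 5 negative. Without overlap, 4 genes were higher and 1 lower, against 17.9% and 18.8% of all tested genes. ITGB4, the hemidesmosomal integrin that binds the LAMA3 trimer, had 582, 498 and 710 CPM in the fresh libraries and 767, 1011 and 989 CPM in the preconditioned libraries, without overlap (log2 fold change 0.63, adjusted p = 0.071). DST and PLEC, which tie keratin filaments to hemidesmosomes, had log2 fold changes of opposite sign (0.85 and −0.84, adjusted p = 0.16 and 0.17). With one library removed at a time these were 0.41 to 1.10 for DST, the lowest without preconditioned replicate 3 (2725 CPM), and −1.33 to −0.55 for PLEC, the extremes without preconditioned replicates 1 and 3. Without preconditioned replicate 1 the adjusted p was 0.0496 for DST, 0.0153 for PLEC and 0.0219 for ITGB4. It missed the threshold for these genes without any one of the other libraries. Of 12 genes for the synthesis and editing of heparan sulfate, the chain carried by perlecan and agrin, SULF1, which removes sulfate groups, fell from 166 ± 8.40 to 121 ± 4.28 CPM (SD, n = 3 each; log2 fold change −0.45, adjusted p = 0.0474). EXT1 and EXTL3, which build the chain, and NDST2, which modifies it, had log2 fold changes of −0.54, −0.50 and −0.56 (adjusted p = 0.089, 0.099 and 0.065), and the median of the list was −0.45, with 9 of 12 estimates negative. Without preconditioned replicate 1 the adjusted p was 0.094 for EXT1, 0.0058 for EXTL3 and 0.0462 for NDST2. HS2ST1, a sulfotransferase of the chain, went the other way without overlap between the groups (log2 fold change 0.49, adjusted p = 0.077).

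**Figure D4:**
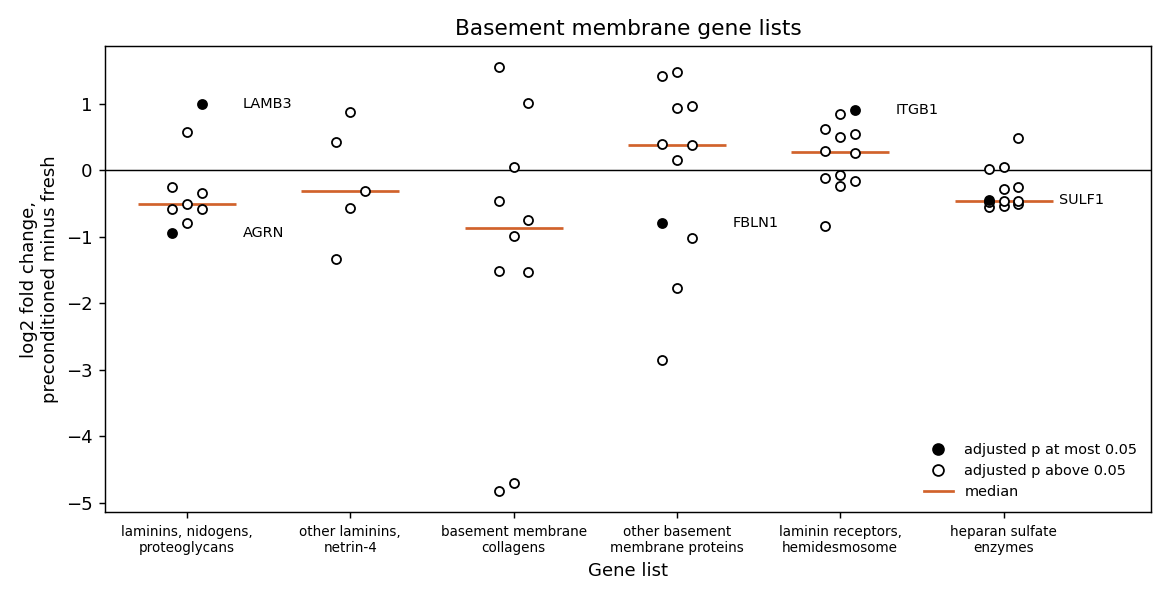
Log2 fold change, preconditioned minus fresh, of each tested gene in 6 lists, with filled, named points for an adjusted p of at most 0.05 and orange lines at the list medians. The 5 named genes are LAMB3 and ITGB1 above 0 and AGRN, FBLN1 and SULF1 below 0, and the lowest points are COL4A3 and COL4A4.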

How the data were processed

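The authors aligned Illumina reads of polyA RNA (hisat2), obtained gene counts with htseq-count, and deposited these raw counts beside FPKM. The genome build, annotation and strand setting are not given in the sources used here, so no coordinates are given. The test was edgeR 4.0.16 under R 4.3.3 (filterByExpr, TMM, robust quasi-likelihood test, condition only), which left 15029 of 22190 genes. Benjamini-Hochberg adjustment ran over all tested genes. The study's cutoffs, applied there with DESeq2, were 0.05 for the adjusted p and 1 for the log2 fold change in either direction. Standard errors came from the F statistic. FPKM were used for levels between genes and for ratios within a library, which were compared by exact permutation of the 6 libraries. Depth (31952352 to 34327534 counts per library) limits the precision less than the spread between libraries, and the counts are not normalized. Alternatives were DESeq2 1.42.0, other scalings and filters, limma-trend 3.58.1 on log2 FPKM, the replicate number as a block, and leaving out each library. The text names all 9 genes, those past the adjusted p threshold and the 3 largest fold changes of each list, and the nearest genes by pattern. A few others (LAMB2, COL4A1, COL7A1, COL17A1, COL18A1, ITGA3, ITGA6, ITGB4, HS2ST1 and single markers) were chosen after their values were seen, and PXDN is one the paper named. The 9 genes and the lists were chosen with earlier results of these data known. A gene of the lists is not reported here and stands in none of their counts.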

Additional observations from a re-analysis of the deposited data

How the results depend on the processing

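The sign of each of the 9 log2 fold changes was the same under every alternative run. The cause of the changes in counts was not tested. At the study's cutoffs, 344 genes passed with edgeR, 1190 with DESeq2, 565 with library size alone, 283 and 590 with limma on log2(FPKM + 1) and log2(FPKM + 0.1), 30 with the replicate number as a block, 763 without the fold change cutoff, and 14 to 1546 when each library was left out. Scaling by library size alone moved the median log2 fold change of all genes from 0.01 to −0.16 and the share of higher calls from 47.4% to 25.1% (27.2% and 23.9% with limma on FPKM + 1 and FPKM + 0.1). Of the 9 genes, 0 passed these cutoffs and 0 to 1 without one library. AGRN alone passed (1 gene) with library size alone and with either limma fit, and 2 passed without the fold change cutoff. By adjusted p alone, 2 of the 9 genes passed with edgeR, 5 with DESeq2, 4 with library size alone, with a filter of at least 1 CPM in 3 libraries and with either limma fit, and 0 to 5 without one library. With the replicate number as a block, 0 passed, and LAMB3 and AGRN had adjusted p values of 0.0897 and 0.0878 (LAMA3 0.139, LAMA5 0.129, LAMC1 0.132). Deviations of same-numbered libraries were not positively related (correlations across genes of −0.109 to −0.067). With 3 libraries per group and the animals not given, this cannot decide whether the numbers pair the samples. The ratios within a library moved by less than the pooled SD of the groups under all alternatives run, although the small log2 difference of NID2 to NID1 (0.06) was −0.11 to 0.32 when each library was left out. At these depths all 9 genes had at least 538 counts in every library, and 3 libraries per group limit what can be detected. The summed NID1 count was added after seeing the data.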
